A study of Mus musculus with 9 samples.

Results

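The genes described here are 10 that mark the surface epithelium of the ovary: the keratins Krt8, Krt18 and Krt19, the uroplakins Upk3b and Upk1b, the galectin Lgals7, mesothelin (Msln), the mucin Muc16, and the adhesion molecules Cdh1 and Epcam. They were taken as a given list, by matching the Ensembl identifiers of the deposited gene tables to GENCODE M21 symbols. They are 10 of the 55536 genes in those tables, and all 10 were measured well enough to be tested. Expression was profiled by RNA-seq in 9 mouse ovaries, 3 in each of 3 groups. Granulosa cell tumours and hyperplastic ovaries came from mice with 1 copy of Foxl2 carrying the C134W change (FOXL2 WT/C134W), and the normal ovaries from FOXL2 WT/WT mice. Age, strain and the way the allele was made are not given in the sources used here, and the labels do not say that the libraries came from separate animals, so p-values measure the spread between these samples, which may be technical. The titles of hyperplasia library 3 and of tumour library 3 begin with the same stem.

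The ovarian surface epithelium is a single sheet of mesothelial cells that covers the ovary, continuous with the lining of the body cavity. Its cells carry the keratins of simple epithelia together with proteins of the mesothelial surface, and in mice they are known for repairing the surface after each ovulation. Granulosa cells, which line the follicle inside the ovary, arise in part from the same embryonic coelomic epithelium. Each library here was made from ovary tissue that holds many other cell types. Differences in the number of surface cells, in RNA per surface cell and in RNA of these genes from other cells therefore cannot be told apart. The labels do not say whether whole ovaries or pieces were taken, so how much of the surface each sample held is not known.

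Libraries held 11661820 to 20890487 counts on genes, and mitochondrial genes took 2.54% to 4.18% of them. Levels are in CPM, the count unit scaled for library depth, with TMM factors, and, where genes are compared with each other, in TPM, which is also scaled for transcript length. A pair of libraries stood apart from their groups. Tumour library 2 correlated with the other tumours at r = 0.874 and 0.884 over all tested genes, against 0.961 between tumour libraries 1 and 3. Wild-type library 1 correlated with its group at r = 0.898 and 0.908, and its deviation from the mean of all libraries followed gene length (Spearman rho −0.57, against −0.25 in tumour library 2 and 0.07 to 0.35 in the others). The labelled tissue was checked against its markers. Summed over 7 oocyte genes, the tumours had 1.43 to 4.97 CPM and the hyperplasias 2.97 to 67.6 CPM, against 113 to 148 CPM in wild type. The sum over 8 granulosa cell genes was 3758 to 4707 CPM in tumours and 936 to 2914 CPM in hyperplasia, against 1433 to 3147 CPM in wild type. Foxl2 itself, whose point mutation gene levels do not check, stood at 268, 227 and 388 CPM in tumour libraries 1, 2 and 3. Inha, an inhibin subunit of granulosa cells, stood at 2402, 2820 and 3021 CPM in them. Fshr, the follicle-stimulating hormone receptor, stood at 81.8, 0 and 80.7 CPM. Fshr was picked out after its values were seen.

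The starts of the genes are shown for 4 of the 6 members with an entry in the promoter table. Krt8, Krt18 and Upk3b were planned, and Epcam was added after the results were seen. Lgals7 and Muc16, which are not shown, held no E-box. Each stretch runs from 250 bases before to 50 bases after the annotated start (RefSeq, GRCm38.p6, 5′ to 3′ on the strand of the gene). Krt8 (chr15:102004293-102004592, minus strand) and Krt18 (chr15:102027966-102028265, plus strand) encode partner keratins and lie 23.7 kb apart on chromosome 15. Upk3b (chr5:136038246-136038545, plus strand) and Epcam (chr17:87635729-87636028, plus strand) stand for the uroplakins and the adhesion molecules. Capitals mark matches, on either strand, to the E-box CAGGTG bound by Snail and Zeb repressors, to the TEAD motif GGAATG or to the Sp1 motif GGGCGG.
Krt8: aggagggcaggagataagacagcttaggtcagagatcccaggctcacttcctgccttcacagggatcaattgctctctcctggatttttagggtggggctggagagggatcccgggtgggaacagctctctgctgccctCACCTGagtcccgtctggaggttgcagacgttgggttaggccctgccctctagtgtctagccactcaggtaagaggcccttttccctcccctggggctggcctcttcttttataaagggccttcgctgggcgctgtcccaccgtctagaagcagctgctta
Krt18: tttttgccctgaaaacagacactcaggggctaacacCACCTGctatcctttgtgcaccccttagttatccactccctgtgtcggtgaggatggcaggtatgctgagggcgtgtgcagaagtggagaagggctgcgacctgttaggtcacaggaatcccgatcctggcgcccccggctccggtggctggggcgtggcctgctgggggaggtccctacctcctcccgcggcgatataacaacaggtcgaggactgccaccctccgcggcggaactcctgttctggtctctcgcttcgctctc
Upk3b: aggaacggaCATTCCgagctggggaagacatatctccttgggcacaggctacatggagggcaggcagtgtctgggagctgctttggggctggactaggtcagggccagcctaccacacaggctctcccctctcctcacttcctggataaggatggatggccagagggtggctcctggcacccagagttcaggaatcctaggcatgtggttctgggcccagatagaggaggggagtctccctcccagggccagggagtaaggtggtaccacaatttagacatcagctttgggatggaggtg
Epcam: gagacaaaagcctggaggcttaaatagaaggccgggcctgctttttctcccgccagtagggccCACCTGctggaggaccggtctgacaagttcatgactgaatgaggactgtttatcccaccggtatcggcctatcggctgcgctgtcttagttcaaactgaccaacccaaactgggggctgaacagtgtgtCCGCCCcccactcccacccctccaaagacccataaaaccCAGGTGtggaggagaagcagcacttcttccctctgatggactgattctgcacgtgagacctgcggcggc
The Krt8 stretch held 1 E-box, at −111 to −106 from the start, and Krt18 held 1 at −214 to −209. Epcam held 2, at −187 to −182 and −19 to −14, with an Sp1 match between them at −58 to −53. Upk3b held a TEAD match at −241 to −236. Of 10 members, 6 were in the promoter table, and 3 of these 6 held the E-box, against 20.21% of all 32851 promoters of that length. The TEAD motif was found in 1 of 6 (14.66% of all promoters), Sp1 in 2 of 6 (35.66%) and the grainyhead motif AACNGGTT, which overlaps none of the others, in 0 of 6 (2.088%). Krt19, Upk1b, Msln and Cdh1 were not among the entries.

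The 10 genes divided the tumours rather than separating the groups. Tumour library 1 had the highest level of all 9 libraries for 10 of 10 members and tumour library 2 the lowest for 10 of 10, whereas 14.5% and 24% of all tested genes had those extremes there. Added over the members, tumour libraries 1, 2 and 3 held 1860, 4.19 and 795 CPM. Hyperplasia libraries 1, 2 and 3 held 296, 349 and 837 CPM, against 297, 325 and 362 CPM in wild-type libraries 1, 2 and 3. Tumours 1 and 3 and hyperplasia 3 were thus above every wild-type ovary, hyperplasias 1 and 2 were at the wild-type level, and tumour 2 was far below it. On the TPM scale the sums were 1998, 6.11 and 945 TPM in tumours, 314, 382 and 1023 TPM in hyperplasia, and 250, 335 and 387 TPM in wild type.

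**Figure D1:**
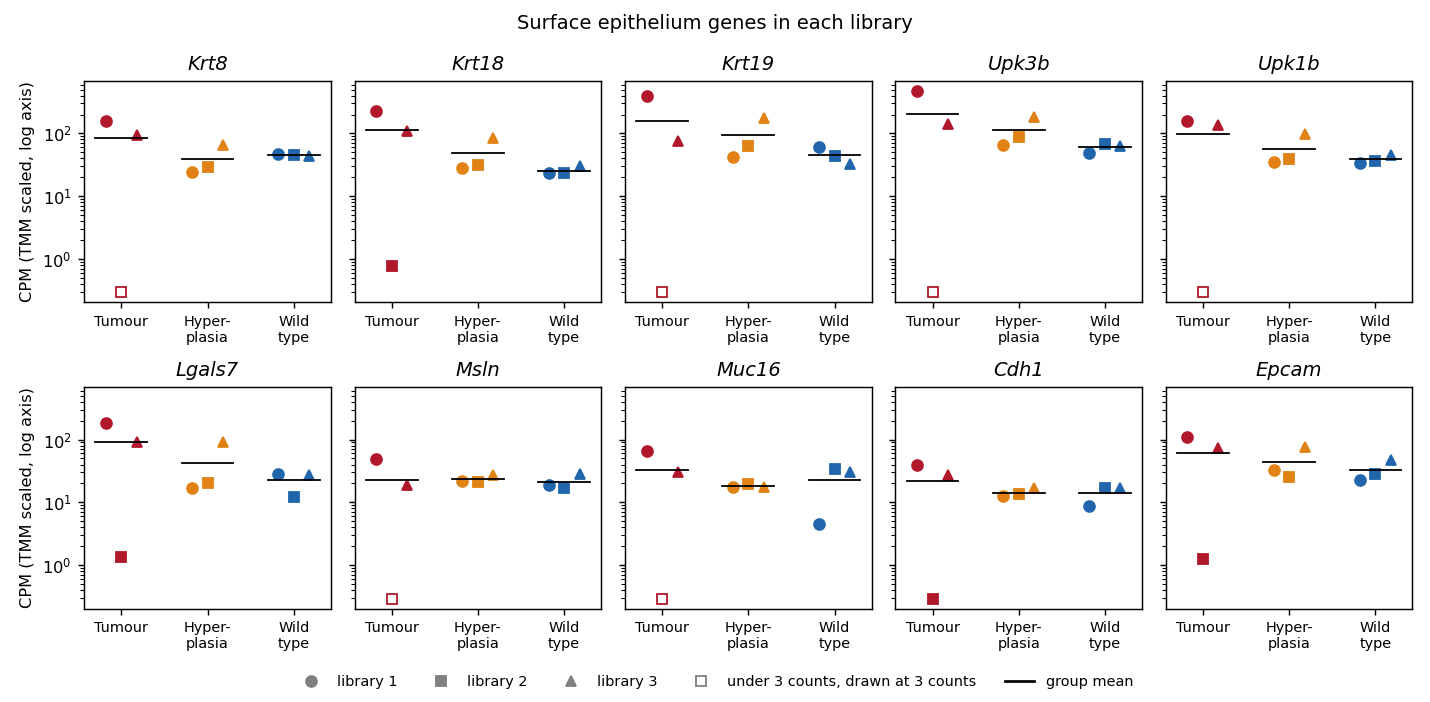
CPM (TMM scaled, log axis) of each surface epithelium gene in each library, with symbols for libraries 1 to 3, a line at each group's mean, and open symbols drawn at 3 counts for libraries under 3 counts. In every panel the square of tumour library 2 is the lowest of the 9 points and the circle of tumour library 1 the highest.

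Keratins 8 and 18 form the heteropolymer filaments of simple epithelia, and keratin 19 is a type I keratin of the same cells. Krt8 (ENSMUSG00000049382, GRCm38 chr15:101996698-102004482, minus strand) had 157, 0.0975 and 94.6 CPM in tumours and 24.4, 29.0 and 64.6 CPM in hyperplasia, against 46.4, 44.5 and 43.3 CPM in wild type. In CPM the wild-type ovaries were nearly alike for Krt8, while the tumours lay on both sides of them and hyperplasias 1 and 2 lay below them. In TPM the wild types were less alike, at 28.8, 43.8 and 41.3 TPM. Hyperplasias 1 and 2, at 23.2 and 27.55 TPM, were then only just below the lowest of them. Krt18 (ENSMUSG00000023043, chr15:102028180-102032027, plus strand) had 227, 0.780 and 108 CPM in tumours and 28.1, 31.2 and 85.8 CPM in hyperplasia, against 23.1, 23.2 and 30.4 CPM in wild type. Krt19 (ENSMUSG00000020911, chr11:100140810-100148665, minus strand) had 396, 0.0975 and 76.9 CPM in tumours and 42.1, 62.8 and 179 CPM in hyperplasia, against 61.5, 43.6 and 32.2 CPM in wild type. Tumours 1 and 3 exceeded all wild types for the 3 keratins, and for Krt19 hyperplasia 3 exceeded tumour 3 as well. Krt8 has a processed pseudogene, Krt8-ps, with 0 to 38 counts per library, and its expected count was not whole in 8 libraries. Those counts are small beside the 400 to 2371 counts of Krt8 in the libraries other than tumour 2.

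Upk3b and Upk1b belong to the uroplakins, membrane proteins first known from the bladder lining that mesothelial cells also make. Upk3b (ENSMUSG00000042985, chr5:136038496-136046487, plus strand) had 472, 0.0975 and 142 CPM in tumours and 64.7, 88.2 and 184 CPM in hyperplasia, against 49.6, 68.4 and 62.4 CPM in wild type. It was the member with the highest count in tumour 1, 7136, and had 1 count in tumour 2. Upk1b (ENSMUSG00000049436, chr16:38773184-38800328, minus strand), a tetraspanin, had 161, 0.0975 and 134 CPM in tumours and 34.6, 38.7 and 96.3 CPM in hyperplasia, against 33.5, 37.0 and 45.5 CPM in wild type. Tumours 1 and 3 were closest to each other in this gene. The uroplakins of the bladder that are not members (Upk1a, Upk2, Upk3a and Upk3bl) summed to 0.084 to 0.331 CPM in tumours and 0 to 0.268 CPM in hyperplasia, against 0.287 to 1.59 CPM in wild type, and 0 of 4 were measured well enough to be tested.

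Lgals7 encodes galectin-7, a sugar-binding protein of epithelia. Lgals7 (ENSMUSG00000053522, chr7:28863853-28866284, plus strand) had 182, 1.37 and 90.1 CPM in tumours and 16.8, 20.4 and 90.6 CPM in hyperplasia, against 28.2, 12.1 and 26.8 CPM in wild type. An antisense gene that overlaps it, Gm10648, had 0 counts in all 9 libraries. Mesothelin is a surface glycoprotein of mesothelium that binds the mucin Muc16, known in humans as the tumour antigen CA125. Msln (ENSMUSG00000063011, chr17:25748613-25754378, minus strand) had 49.9, 0.0975 and 18.7 CPM in tumours and 21.9, 20.9 and 27.6 CPM in hyperplasia, against 19.2, 16.7 and 28.2 CPM in wild type. Muc16 (ENSMUSG00000109564, chr9:18495455-18674530, minus strand) had 66.9, 0 and 30.1 CPM in tumours and 17.8, 19.3 and 17.7 CPM in hyperplasia, against 4.48, 34.1 and 30.1 CPM in wild type. For both members of this binding pair tumour 3 lay inside the wild-type range, so that of the tumours only tumour 1 was above it. Hyperplasia 3, which led its group for 9 of 10 members (36.4% of all genes did), did not lead it for Muc16. The low Muc16 value in wild type was that of library 1, which was also the lowest of its group for 6 of 10 members (43.9% of all genes).

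E-cadherin (Cdh1) is the calcium-dependent adhesion molecule of epithelial junctions, and Epcam is an adhesion molecule of the epithelial membrane. Cdh1 (ENSMUSG00000000303, chr8:106603351-106670246, plus strand) had 38.7, 0.293 and 27.0 CPM in tumours and 12.8, 13.3 and 16.8 CPM in hyperplasia, against 8.65, 16.7 and 16.8 CPM in wild type. Epcam (ENSMUSG00000045394, chr17:87635979-87651129, plus strand) had 109, 1.27 and 73.8 CPM in tumours and 33.0, 25.3 and 75.2 CPM in hyperplasia, against 22.7, 28.6 and 46.5 CPM in wild type. Both were above all wild types in tumours 1 and 3, and Epcam was as high in hyperplasia 3 as in tumour 3.

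Scaled for length, Krt19 and Lgals7 had the highest group means. They did not lead in every library: in tumour 3 Lgals7 (274 TPM) was followed by Krt18 (143 TPM), Upk1b (131 TPM) and then Krt19 (123 TPM), and in tumour 2, at 0 to 14 counts per member, Krt19 was sixth. In tumours the highest mean levels were those of Lgals7, 264 ± 256 TPM, Krt19, 223 ± 286 TPM, and Krt18, 139 ± 136 TPM (SD, n = 3). In hyperplasia the first 3 were Krt19 at 156 ± 119 TPM, Lgals7 at 126 ± 121 TPM and Krt18 at 63.7 ± 40.9 TPM. In wild type Krt19 at 62.1 ± 13.8 TPM and Lgals7 at 59.9 ± 20.4 TPM led, and Krt18 was sixth at 31.4 ± 10.4 TPM. Msln, Muc16 and Cdh1 were the lowest 3 members, in that order, in each library other than tumour 2, where Msln (0.75 TPM, from 1 count) came after only Lgals7 and Epcam. Their group means were Msln at 18.6 ± 19.3, 20.9 ± 2.42 and 18.2 ± 8.19 TPM, Muc16 at 10.1 ± 8.90, 7.80 ± 2.69 and 8.32 ± 2.78 TPM, and Cdh1 at 8.12 ± 6.97, 5.54 ± 0.677 and 5.20 ± 2.58 TPM in tumours, hyperplasia and wild type. Neighbours in this order overlapped over libraries in all 3 groups, except Msln and Muc16, whose values were separate in hyperplasia and in wild type. The transcript length that RSEM reported varied widely between libraries for Msln, Muc16 and Cdh1, which moves their TPM but not their CPM. Of 54 keratin genes in the annotation 11 were tested, and in wild type only Krt19, Krt8, Krt18, Krt7 and Krt10 averaged at least 10 TPM.

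The spread within the tumours was wide for every member. Highest over lowest CPM ran from 85.8 for Epcam to 4844 for Upk3b in tumours and from 1.09 to 5.41 in hyperplasia, against 1.07 to 7.62 in wild type. The medians over the members were 402, 2.81 and 1.80, and over all 16213 tested genes 1.82, 1.45 and 1.77, in the same order of groups. With 0 counts set to the floor of 3 counts, 123 genes, 0.759% of those tested and the members among them, spread at least as far over the tumours as Epcam did. That floor lowers the ratio of genes with 0 counts in a tumour, so this number is a lower bound. Tumour 2 had 0 counts of Muc16, 1 count each of Krt8, Krt19, Upk3b, Upk1b and Msln, 3 of Cdh1, 8 of Krt18, 13 of Epcam and 14 of Lgals7. Of the 10 members 7 were at 3 counts or fewer there, against 8.84% of all tested genes. A single count in that library was worth 0.0975 CPM, so the ratios carry wide counting error.

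With exact 95% intervals, which cover counting error only, tumour 1 was 4844 times as high as tumour 2 for Upk3b (869 to 191369), 291 times for Krt18 (148 to 675) and 85.8 times for Epcam (50.03 to 161). For Muc16 tumour 1 was at least 229-fold higher, counted against a floor of 3 counts in tumour 2. Tumour 2 was also below wild type: the pooled wild-type ovaries were 16.6 times as high for Lgals7 (9.88 to 30.5), 25.4 times for Epcam (14.8 to 47.7), 32.6 times for Krt18 (16.5 to 75.7) and at least 74.8-fold higher for Muc16. So in tumour 2 each member was below the wild-type level by more than counting error, and below tumour 3 as well, with the smallest ratio 58.2 for Epcam (33.9 to 110). Between tumours 1 and 3 the ratio of CPM was 1.20 (Upk1b) to 5.16 (Krt19), with a median of 2.07. Relative to the wild-type mean, tumour 1 was 2.34 (Msln) to 8.89 (Krt18) times as high and tumour 3 0.877 (Msln) to 4.21 (Krt18) times.

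**Figure D2:**
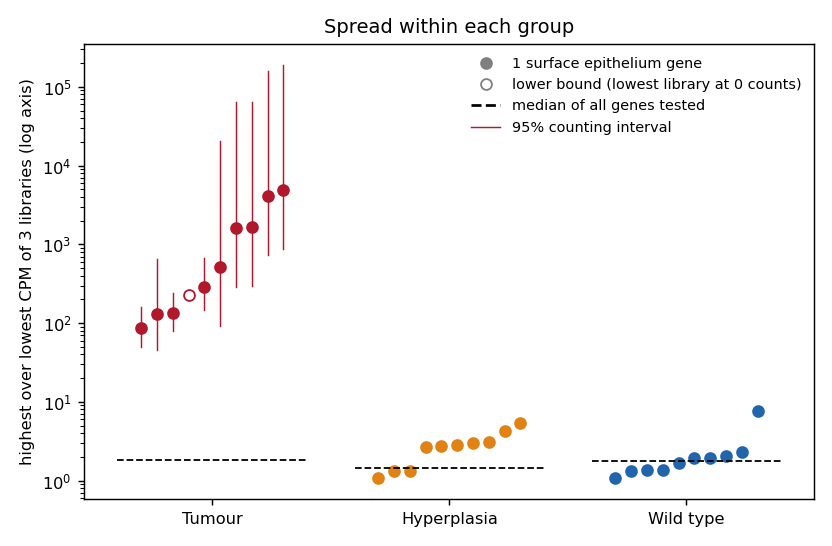
Highest over lowest CPM of the 3 libraries of a group (log axis), 1 point per surface epithelium gene, with the median of all tested genes as a dashed line, the 95% counting interval as a thin line and an open point for a lower bound. Tumour points lie between 85.8 and 4844, above all points of hyperplasia and wild type, which reach 5.41 and 7.62.

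Hyperplasia was uneven in another way. Summed over the members, library 3 was high, libraries 1 and 2 were at the wild-type level, and none was far below it as tumour 2 was. Highest over lowest CPM of the members was 1.09 to 5.41 in hyperplasia and 1.07 to 7.62 in wild type, with medians of 2.81 and 1.80. The wild-type maximum was that of Muc16, from its low value in library 1, and the next was 2.34 for Lgals7. Gene by gene, hyperplasia was narrower than wild type for Msln, Muc16 and Cdh1 and wider for the other members. Hyperplasia 3 was 0.953 (Muc16) to 4.87 (Lgals7) times the mean of hyperplasias 1 and 2, with a median of 2.50 over the members, and was above all wild types for 8 of 10 (23.9% of all genes were). Set against tumour 3, with which it shares a title stem, it was near in level: tumour 3 over hyperplasia 3 was 0.430 to 1.70, with a median of 1.12, and tumour 3 was the higher in 5 of 10 members.

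Whether the tumours as a group differed from normal ovaries was tested with edgeR's quasi-likelihood test over 16213 genes, Benjamini-Hochberg adjusted over all of them at a threshold of 0.05. It called 0 of 10 members, where 259 of all genes (1.6%) were called, 57 higher (0.352%) and 202 lower (1.25%). Also at an unadjusted p under 0.05 the members' count was 0, against 3262 genes (20.1%), and DESeq2 and limma-voom called 0 as well. Fitted log2 fold changes ran from 0.11 for Msln to 2.13 for Krt18, with 10 of 10 above 0 and a median of 1.13 (0.01 over all genes). Their standard errors were 1.00 to 1.44, against a median of 0.38 over all genes, and adjusted p-values were 0.366 to 0.973. For Krt18 the means were 112 ± 113 CPM in tumours and 25.6 ± 4.15 CPM in wild type (SD, n = 3 each; log2 fold change 2.13, SE 1.20, edgeR adjusted p = 0.366). For Krt8 they were 83.9 ± 79.0 CPM in tumours and 44.8 ± 1.54 CPM in wild type (log2 fold change 0.91, SE 1.23, edgeR adjusted p = 0.730). Tumours and wild type overlapped for all 10 members, while 24.1% of all genes had groups apart. The direction depended on the fit: with limma-voom, which averages logarithms, 8 of 10 members were lower in tumours (median −1.04).

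Leaving out tumour library 2 narrowed the errors without any call. The median log2 fold change of the members was then 1.71 (−0.04 over all 16703 genes tested), and standard errors were 0.33 to 0.75. Krt18 had a log2 fold change of 2.71 (SE 0.52, edgeR adjusted p = 0.0556), Upk1b 1.93 (SE 0.42, 0.0652), Upk3b 2.36 (SE 0.55, 0.0719) and Cdh1 1.23 (SE 0.33, 0.0914). Msln (0.69, SE 0.41, edgeR adjusted p = 0.355) and Muc16 (1.09, SE 0.69, 0.385) had the largest p-values. In that fit 69 genes (0.413%) passed, 0 of them members, and 8 of 10 members had an unadjusted p under 0.05, against 22% of all genes. Without wild-type library 1 and tumour library 2 together, an alternative chosen after seeing the data, the median was 1.65 and the smallest adjusted p 0.0985. Without tumour library 1 instead, the median was 0.15 and 4 of 10 members (Krt19, Msln, Muc16 and Cdh1) had fitted values below 0. Tumours 1 and 3 both exceeded all wild types for 8 of 10 members, Msln and Muc16 being the exceptions, as they did for 20.2% of all genes.

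**Figure D3:**
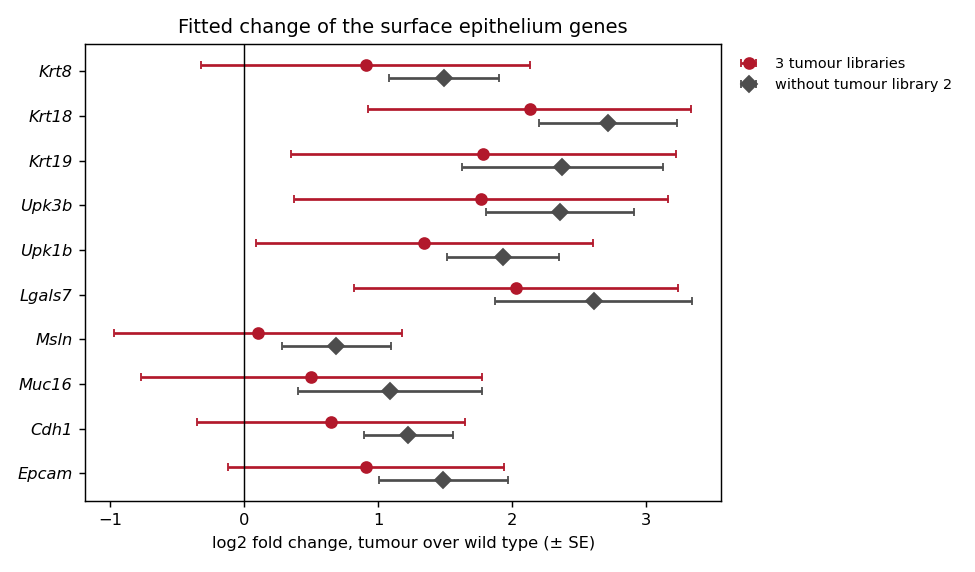
Fitted log2 fold change of tumour over wild type with its standard error (edgeR), from all 3 tumours (red circles) and without tumour library 2 (grey diamonds). All fitted values lie right of 0, and the error bars, 1.00 to 1.44 long with 3 tumours, are 0.33 to 0.75 long without tumour library 2.

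For hyperplasia against wild type the test also called 0 of 10 members, where it called 0 of all 16213 genes (0%; 572 genes, 3.53%, had an unadjusted p under 0.05, and DESeq2 called 21). Log2 fold changes ran from −0.32 for Muc16 to 1.05 for Krt19, with 8 of 10 above 0 and a median of 0.50. No member had an unadjusted p under 0.05 or was called by DESeq2 or limma-voom. The means of Krt19 were 94.5 ± 73.5 CPM in hyperplasia and 45.8 ± 14.8 CPM in wild type (SD, n = 3 each), and those of Upk3b 112 ± 62.9 CPM in hyperplasia and 60.1 ± 9.58 CPM in wild type. Groups overlapped for all 10 members (9.81% of genes had groups apart). Without hyperplasia library 3 the median turned to −0.09 and 6 of 10 members were lower. For tumour against hyperplasia 0 of 10 members were called, where 30 of all genes (0.185%) were called, all lower. No member had an unadjusted p under 0.05 or was called by DESeq2 or limma-voom. Groups overlapped for all 10 members, while 21.9% of all genes had groups apart. The fitted median was 0.81, 9 of 10 values were above 0 and the smallest adjusted p was 0.684. The median was −0.15 without tumour library 1 and 1.40 without tumour library 2. It shares its tumour and hyperplasia libraries with the other comparisons.

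The partner keratins did not keep 1 ratio. Krt8 over Krt18, in TPM, was 0.488, 0.0833 and 0.614 in tumours and 0.609, 0.652 and 0.528 in hyperplasia, against 1.41, 1.34 and 1.00 in wild type. All 6 mutant libraries were below all 3 wild types, although the level of the pair was low in tumour 2 and high in tumour 1. The mean ratio was 0.395 ± 0.277 in tumours and 0.596 ± 0.0628 in hyperplasia, against 1.25 ± 0.217 in wild type (SD, n = 3 each), and an exact two-sided permutation test gave p = 0.1 for each mutant group, the smallest that 3 against 3 allows. The tumour 2 value rests on 1 and 8 counts. On expected counts, before scaling for length, the ratio was 0.691, 0.125 and 0.878 in tumours and 0.868, 0.928 and 0.753 in hyperplasia, against 2.01, 1.92 and 1.43 in wild type. This ratio was picked out after the values were seen, among 6 ratios of member TPM that were computed, and no other was tested. Ratios of other gene pairs were not set beside it, so how often such a lack of overlap occurs is not known. Any 3 against 3 without overlap gives that permutation p-value, so the test adds nothing to the lack of overlap.

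**Figure D4:**
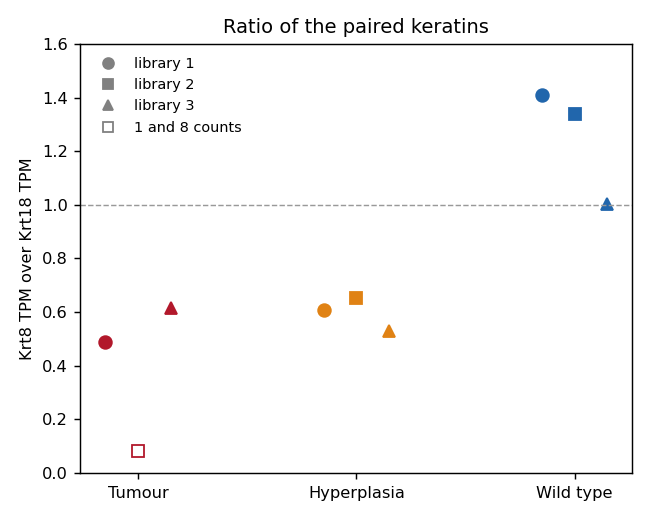
Krt8 TPM over Krt18 TPM in each library, with symbols for libraries 1 to 3 and an open symbol for tumour library 2, where the genes had 1 and 8 counts. Mutant libraries reach 0.652 at most, and wild-type libraries start at 1.00.

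Among themselves the members varied together. Over the 9 libraries the 45 pairs had Pearson r of log2 CPM from 0.806 to 0.992 with a median of 0.968, as a description of libraries that share tumour 2. Over the 8 libraries without tumour 2 the range was 0.355 to 0.980 and the median 0.835. Spearman's rho over the same 8 libraries was lower, 0.048 to 0.976 with a median of 0.667. Pairs of other genes were not set beside these values. Muc16 (mean r 0.563 with the other members) and Msln (0.664) were then the least like the rest, and Krt18 (0.863) the most.

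The 10 other genes whose pattern was most like the mean log2 CPM of the members, of 13622 candidates, were Wt1, Hsd17b2, Pcnx2, Hoxc9, Emx2, Crb2, Megf6, Stk26, Slc23a3 and Rspo1. Their Pearson r was 0.993 to 0.997 over 9 libraries, 0.928 to 0.992 without tumour 2 and 0.819 to 0.978 without tumours 1 and 2, and 371 genes reached 0.9. Wt1, a transcription factor of the mesothelium and of the developing gonad, had 422, 2.54 and 205 CPM in tumours and 89.8, 104 and 186 CPM in hyperplasia, against 70.7, 108 and 108 CPM in wild type. Emx2, a homeobox factor needed for the embryonic gonadal epithelium, had 107, 0.488 and 44.4 CPM in tumours and 28.6, 20.1 and 48.0 CPM in hyperplasia, against 16.5, 24.7 and 30.1 CPM in wild type. Rspo1, a secreted activator of Wnt signalling, had 48.6, 0.0975 and 24.9 CPM in tumours and 12.6, 12.2 and 33.5 CPM in hyperplasia, against 10.4, 10.5 and 8.85 CPM in wild type. All 3 were highest in tumour 1 and lowest in tumour 2, as was the mean of the members by which they were chosen, so this follows from the choice. The ranking depends on tumour 2: without it 2 of the 10 genes, Wt1 and Hoxc9, stayed among the first 10, and with Spearman's rho 1 did.

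Other genes of the mesothelium were less uniform. Of 13 in the list 0 were called in either direction in tumours against wild type, the median log2 fold change was 0.58 (0.01 over all genes), and tumour 2 had the lowest level for 10 of 13. Tumours 1 and 3 were both above all wild types for 6 of 13 (20.2% of all genes): Krt7, Wt1, Rspo1, Lrrn4, Gpm6a and Podxl. Both were below all wild types for 2 (20.8% of all genes), C3 and Prg4. Krt7, another simple keratin, had 395, 0.195 and 125 CPM in tumours and 30.0, 51.4 and 128 CPM in hyperplasia, against 22.6, 30.9 and 53.4 CPM in wild type (edgeR log2 fold change 2.28, SE 1.42, adjusted p = 0.413). Complement C3 had the smallest adjusted p of the list, with 33.8, 2.05 and 13.3 CPM in tumours and 225, 452 and 77.9 CPM in hyperplasia, against 67.7, 520 and 97.8 CPM in wild type (log2 fold change −3.79, SE 1.15, edgeR adjusted p = 0.115). Here tumours 1 and 3 did not share the high levels of the keratins. Igfbp6, an IGF-binding protein (log2 fold change −0.83, edgeR adjusted p = 0.294), and Prg4, the lubricating proteoglycan lubricin (−1.34, adjusted p = 0.469), had fitted values below 0, and Cdh2, N-cadherin, was as high in tumour 2, 93.3 CPM, as in the others, 72.6 and 65.7 CPM. Cdh2 was picked out after its values were seen.

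General epithelial genes were mixed in tumours 1 and 3. Both were above all wild types for 4 of 22 junction and identity genes (20.2% of all genes) and below all for 5 (20.8%). Summed, these genes had 671, 122 and 419 CPM in tumours and 353, 345 and 432 CPM in hyperplasia, against 452, 374 and 489 CPM in wild type, so that tumour 1 was the highest and tumour 2 the lowest library. Of the 22 junction and identity genes 20 were tested and 0 called, with a median log2 fold change of −0.20 in tumours against wild type and 0.12 without tumour 2, and tumour 2 was the lowest for 19 of 22 and at 3 counts or fewer for 15. Cldn4, a claudin of tight junctions, had 1.19, 0.0975 and 0.504 CPM in tumours and 0.910, 0.869 and 0.719 CPM in hyperplasia, against 2.44, 1.88 and 2.87 CPM in wild type (edgeR log2 fold change −1.95, SE 0.67, adjusted p = 0.151). Esrp1, a splicing regulator of epithelia, Ehf, an epithelial ETS factor, and Grhl2, a grainyhead factor, had log2 fold changes of −1.96, −1.62 and −1.58 (edgeR adjusted p 0.368, 0.324 and 0.448). The Grhl2 value rests on low counts, 2, 0 and 8 in tumours against 3, 18 and 22 in wild type. St14, the membrane protease matriptase, had 23.7, 0.293 and 17.5 CPM in tumours and 4.18, 5.07 and 9.59 CPM in hyperplasia, against 5.02, 6.07 and 7.36 CPM in wild type. Spint1, its inhibitor, had 9.53, 0 and 11.9 CPM in tumours and 3.59, 3.69 and 8.87 CPM in hyperplasia, against 3.53, 4.53 and 5.12 CPM in wild type. This pair was picked out after its values were seen, and was high in tumours 1 and 3 and nearly missing in tumour 2, as the members were. Of 11 stratified and other keratins 4 were tested and 0 called. Here tumour 2 was alone the lowest library for 2 of 11, Krt20 and Krt80. Some others, at levels too low to be tested, had their highest counts of the 9 libraries in tumour 2, as Krt5 (19 counts) and Krt15 (21 counts) did. Krt80 had 9.27, 1.46 and 6.80 CPM in tumours and 2.36, 2.03 and 2.97 CPM in hyperplasia, against 1.54, 2.71 and 2.53 CPM in wild type (edgeR log2 fold change 1.37, SE 0.61, adjusted p = 0.247). Krt20, Krt23 and Krt14 had log2 fold changes of 1.19, 2.87 and −0.83 (edgeR adjusted p 0.635, 0.320 and 0.569). Low counts lie behind the last 2. Krt23 had 30, 0 and 12 counts in tumours against 0, 6 and 1 in wild type. Krt14 had 8, 10 and 4 counts in tumours against 7, 25 and 25 in wild type.

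Of 8 factors and markers of the epithelial-mesenchymal transition 0 were called, and the median log2 fold change was 0.27. Snai1, a repressor that binds the E-box, had 12.4, 7.80 and 9.16 CPM in tumours and 10.7, 11.1 and 11.2 CPM in hyperplasia, against 17.0, 17.7 and 16.3 CPM in wild type (edgeR log2 fold change −0.79, SE 0.25, adjusted p = 0.128). Zeb1 and Zeb2, repressors of the same site, had 97.7 and 62.8 CPM in tumour 2, the lowest of the tumours in each case (161 and 140 CPM for Zeb1, and 95.4 and 115 CPM for Zeb2, in tumours 1 and 3). Their log2 fold changes against wild type were 0.65 and −0.98 (edgeR adjusted p 0.276 and 0.174), and that of Twist2 was 2.08 (0.168).

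Markers of the other cells of the ovary were set beside the members. The oviduct list, whose epithelium shares several of these genes, summed to 13.4 to 17.7 CPM in tumours and 17.7 to 17.97 CPM in hyperplasia, against 26.6 to 117 CPM in wild type, with 0 of 4 tested genes called. Ovgp1, the secreted oviduct glycoprotein, was at 81.3 CPM in wild-type library 2 and at 0.0975 to 6.51 CPM in the other 8 libraries (edgeR log2 fold change −6.64 in tumours against wild type, adjusted p = 0.0610). Of 7 stroma genes 0 were called, with a sum of 1554 to 5367 CPM in tumours and 3005 to 5241 CPM in hyperplasia, against 1855 to 4175 CPM in wild type, and tumour 2 was the lowest for 6 of 7. Of 8 granulosa cell genes 0 were called (median 0.83), and of 6 endothelial genes 0 (median −0.61). Genes called lower in tumours were 3 of 7 of the theca and luteal list (median −2.53), 4 of 7 oocyte genes (−7.44), 2 of 6 tested leukocyte genes (−1.27) and 1 of 5 tested adipocyte genes (−9.10). Over all genes 1.25% were called lower, and 0 genes of these lists were called higher. Without tumour 2 the counts called lower were 1, 0, 1 and 0. In that fit 69 of all genes (0.413%) were called in either direction, against 259 with all libraries. The fitted medians of the oocyte and adipocyte lists include genes at 0 counts in all tumours and are no measure of fold. The part of these cell types in the levels of the members was not tested.

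**Figure D5:**
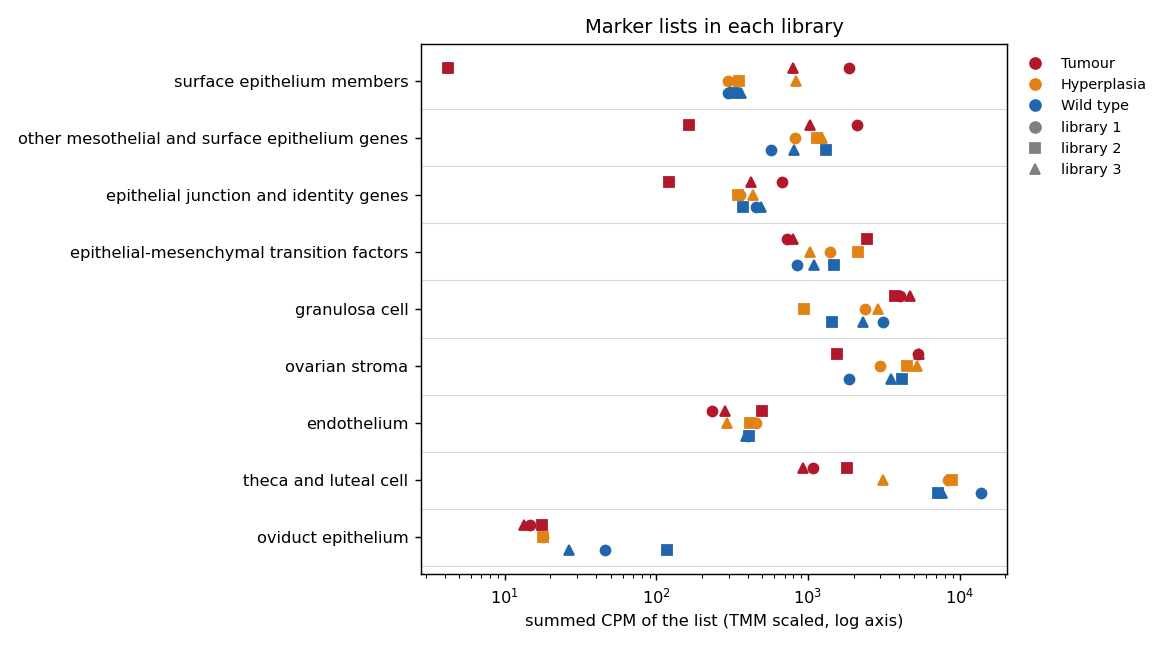
Summed CPM (TMM scaled, log axis) of the surface epithelium genes and of other marker lists in each library, coloured by group with tumours on top, and with symbols for libraries 1 to 3. The surface epithelium row reaches from 4.19 to 1860 CPM in tumours, while the granulosa cell row stays between 3758 and 4707 CPM in the same libraries. The granulosa cell sum is largely Inha (2402, 2820 and 3021 CPM in tumours 1, 2 and 3), and single genes of that list differ in how steady they are. Esr2 had 231, 182 and 163 CPM in these tumours, and Cyp19a1 had 2.18, 83.2 and 33.0 CPM.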

How the data were processed

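The authors deposited 1 RSEM gene table per library with expected counts, TPM and FPKM. Per the labels' protocols, ovary RNA was extracted with Trizol and made into stranded TruSeq mRNA libraries. Per the submitters' processing notes, FastQC, STAR 2.7.1a, Picard 2.8.1 and RSEM 1.3.1 were used with GRCm38, with no role or order given. No source used here gives the strand setting. Expected counts were deposited without normalisation, and 25.6% of values above 0 are not whole. The deposited TPM values served for comparisons between genes and 2 alternatives, and FPKM, as deposited, entered no result.

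Expected counts were rounded and tested with edgeR 4.0.16 (R 4.3.3; TMM, filterByExpr with a minimum count of 10 and a total of 15, quasi-likelihood test, 1 fit of 9 libraries and 3 groups), leaving 16213 genes, with p-values adjusted by Benjamini and Hochberg at 0.05. The biological coefficient of variation was 0.432. The fit was tested on simulated data with 200 changed genes. No libraries were duplicates (smallest chi-square per degree of freedom 25.0). Alternatives were DESeq2 1.42.0, limma 3.58.1 (voom and log2 TPM with pseudocounts of 1 and 0.1), no filter, 2 groups only, a replicate block and each library left out. A floor of 3 counts was used per library. The smallest counts carry exact 95% intervals, from the split of counts between libraries. The counts and intervals cover counting error only.

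The members and lists were chosen with earlier results of these data known. Genes named are the members, up to 4 per list with the smallest adjusted p in tumours against wild type, and the 10 most like the members (Pearson r, log2 CPM with a prior count of 1, mean at least 1 CPM). The promoter of Epcam was added after the tables were seen.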

Additional observations from a re-analysis of the deposited data

How the results depend on the processing

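No alternative called a member: the count was 0 of 10 in each of the 3 comparisons under all 18 settings, with a smallest adjusted p of 0.0556 (Krt18 without tumour library 2). Of 540 fitted values, 465 kept their sign and 75 reversed it, with no value past the threshold on either side. For tumour against wild type, log2 differences that turned were, with limma-voom, Krt8 −1.44, Krt19 −1.03, Upk3b −1.11, Upk1b −1.04, Msln −1.76, Muc16 −1.50, Cdh1 −0.70, Epcam −0.30; with limma on log2(TPM + 1), Krt8 −0.72, Krt19 −0.54, Upk3b −0.13, Upk1b −0.53, Msln −0.77, Muc16 −0.50, Epcam −0.32; and on log2(TPM + 0.1), Krt8 −1.63, Krt18 −0.0074, Krt19 −1.26, Upk3b −1.08, Upk1b −1.43, Msln −1.07, Muc16 −1.50, Cdh1 −0.29, Epcam −0.62. For tumour against hyperplasia they were, with limma-voom, Krt8 −1.13, Krt18 −0.43, Krt19 −1.84, Upk3b −1.87, Upk1b −1.45, Muc16 −1.68, Cdh1 −0.80, Epcam −0.67; on log2(TPM + 1), Krt8 −0.57, Krt18 −0.53, Krt19 −1.60, Upk3b −1.04, Upk1b −0.92, Lgals7 −0.16, Muc16 −0.42, Cdh1 −0.11, Epcam −0.81; on log2(TPM + 0.1), Krt8 −1.47, Krt18 −0.90, Krt19 −2.33, Upk3b −2.02, Upk1b −1.83, Lgals7 −0.26, Muc16 −1.42, Cdh1 −0.53, Epcam −1.13; and Msln 0.52 without wild-type library 1 and tumour library 2 together, a setting chosen after seeing the data. For hyperplasia against wild type they were Muc16 0.18 with limma-voom, Cdh1 −0.12 with the replicate block and Cdh1 −0.23 without those libraries. The cause of these turns was not tested.

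Leaving out 1 library at a time gave, for values that turned, Msln −1.17 to 0.69, Krt19 −0.24 to 2.37, Muc16 −0.60 to 1.09, Cdh1 −0.037 to 1.23 in tumours against wild type. The same ranges were Cdh1 −0.22 to 0.18, Msln −0.0096 to 0.39, Muc16 −0.81 to 0.083, Krt8 −0.75 to 0.068, Upk1b −0.077 to 0.81, Lgals7 −0.27 to 1.32, Epcam −0.16 to 0.80 in hyperplasia against wild type and Msln −1.31 to 0.55, Krt19 −1.29 to 1.59, Upk3b −0.66 to 1.45, Muc16 −0.28 to 1.41, Cdh1 −0.067 to 1.20, Epcam −0.24 to 1.08 in tumour against hyperplasia. The members' median ran from 0.15 (without tumour 1) to 1.71 in tumours against wild type, −0.09 (without hyperplasia 3) to 0.75 in hyperplasia against wild type and −0.15 (without tumour 1) to 1.42 in tumour against hyperplasia.

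Counts over all genes depended strongly on the setting. In tumours against wild type, 259 became 1756 with the DESeq2 Wald test, 721 with no filter, 428 and 461 with the TPM fits, 8 without both libraries that stand apart and 0 to 404 with 1 library left out. In hyperplasia against wild type, 0 became 21 (DESeq2), 2 (no filter), 1 on log2(TPM + 1), 3 with only those 2 groups, 2 without both libraries and 0 to 3 with 1 left out. In tumour against hyperplasia, 30 became 808 (DESeq2), 4 (limma-voom), 199 (no filter), 76 and 115 (TPM), 1 with only those 2 groups, 0 without both libraries and 0 to 128 with 1 left out. The replicate block, which joined the libraries with a shared title stem since replicate numbers here are only names and pair nothing, gave 0, 0 and 12 calls in the 3 comparisons, and 0 members in each; 2732 genes had an unadjusted p under 0.05 in the first. Of the 10 genes most like the members, 1 was shared with Spearman's rho and 2 without tumour library 2.

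Low counts limit tumour 2 most: 3 counts there are 0.293 CPM after TMM scaling, and 7 of 10 members had 3 counts or fewer. With 3 libraries a group and this spread, the standard errors of the members in tumours against wild type were 1.00 to 1.44 on the log2 scale.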

Other observations

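Fn1, fibronectin, a matrix protein often made by mesenchymal cells, ran opposite to the members in the tumours and was picked out after its values were seen. It had 55.7, 1782 and 85.7 CPM in tumours and 334, 566 and 52.8 CPM in hyperplasia, against 45.4, 295 and 216 CPM in wild type. Tumour 2 was the highest of the 9 libraries, and tumours 1 and 3 and hyperplasia 3, which had the highest sums of surface epithelium genes, were among the 4 libraries under 100 CPM with wild-type library 1. Vim, vimentin, did not set tumour 2 apart, with 353, 470 and 384 CPM in tumours and 665, 1199 and 671 CPM in hyperplasia, against 603, 834 and 492 CPM in wild type.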
